A study of Homo sapiens with 6 samples.

Results

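The mitochondrial genome of human cells codes for 37 RNAs, and all 37 are described here in cells labelled Huh7, a hepatocellular carcinoma line. They were chosen by symbol, as every gene whose name starts with MT- among the 58233 genes listed, and comprise 13 mRNAs, 2 rRNAs and 22 tRNAs. In 3 libraries the cells had been transfected with a plasmid to overexpress TP53TG1, a long noncoding RNA, and in the other 3 with the empty plasmid; all were made from total RNA with a TruSeq RNA kit. Nothing else is labelled as differing between the groups, and no label tells separate cultures from repeat preparations, so p-values measure only the spread among the 3 libraries of a group, possibly a technical one. Values are FPKM, a level already divided by transcript length, given as fragments per kilobase in each 1000000 fragments.

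Human mitochondrial DNA is transcribed from both strands into long precursor RNAs. In most places tRNAs lie between the mRNAs and rRNAs, and cutting out the tRNAs releases the other RNAs, most of which are then given A tails; MT-ND6 mRNA is known to lack one. The mRNAs code for core subunits of respiratory complexes I, III and IV and of the ATP synthase, complex V, and the rRNAs build the mitochondrial ribosome. Heavy-strand transcripts here are the 12 mRNAs, 2 rRNAs and 14 tRNAs annotated on the plus strand of the reference, and light-strand transcripts are MT-ND6 and 8 tRNAs on the minus strand.

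Sequences of the reference transcripts (GENCODE release 29, GRCh38) show the features on which the measurements below turn. The first pair gives the start of MT-ND6 (chrM:14584-14673, minus strand), the only mRNA of the light-strand transcript, and of its neighbour MT-ND5 (chrM:12337-12426, plus strand), with every G in capitals.
MT-ND6: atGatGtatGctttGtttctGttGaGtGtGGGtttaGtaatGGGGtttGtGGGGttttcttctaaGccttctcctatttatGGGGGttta
MT-ND5: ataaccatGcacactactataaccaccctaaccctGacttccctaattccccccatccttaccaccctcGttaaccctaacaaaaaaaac
Over its whole length MT-ND6 is 35.6% G and 7.05% C. The 12 heavy-strand mRNAs range from 6.28% to 16.2% G and from 29.5% to 36.0% C.

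The second set shows how closely the RNAs are packed. MT-ATP8 and MT-ATP6 share 46 nt (chrM:8527-8572, plus strand), printed with the start codon of MT-ATP6 and the stop codon of MT-ATP8 in capitals. MT-ND4L and MT-ND4 share the 7 nt printed in capitals (chrM:10737-10789, plus strand). MT-ND1 runs without a gap into the isoleucine tRNA gene MT-TI, in capitals (chrM:4233-4331, plus strand), and the valine tRNA gene MT-TV, in capitals, is all that lies between MT-RNR1 and MT-RNR2 (chrM:1572-1700, plus strand).
MT-ATP8/MT-ATP6 overlap: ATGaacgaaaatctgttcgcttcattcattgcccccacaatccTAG
MT-ND4L/MT-ND4 junction: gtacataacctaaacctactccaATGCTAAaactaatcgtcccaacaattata
MT-ND1/MT-TI junction: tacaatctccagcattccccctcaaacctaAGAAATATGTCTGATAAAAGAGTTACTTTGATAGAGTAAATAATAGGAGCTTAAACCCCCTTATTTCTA
MT-RNR1/MT-TV/MT-RNR2 junction: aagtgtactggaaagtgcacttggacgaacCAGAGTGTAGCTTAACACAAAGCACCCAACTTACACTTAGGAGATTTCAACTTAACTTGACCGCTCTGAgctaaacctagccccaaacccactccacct
Of the 13 mRNAs, 6 are followed at once by a tRNA of the same strand: MT-ND1, MT-ND2, MT-CO3, MT-ND3, MT-ND4 and MT-CYB. The same 6 have lengths that are not a multiple of 3 and end in T or TA, and it is the A tail that completes their stop codon.

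The summed FPKM of a library ranged from 599081 in TP53TG1 replicate 1 to 890541 in control replicate 1. TP53TG1 itself was at 69.8, 134 and 70.5 FPKM in the TP53TG1 libraries, against 10.6, 5.25 and 6.15 FPKM in the controls, so the groups did not overlap (log2 fold change 3.46, SE 0.381, adjusted p = 0.0573 by limma with the Benjamini-Hochberg method, and 8.97e-22 when blocked on replicate number). The blocked fit draws its variance largely from all tested genes, and its pairing was chosen from these data. Its p-value is therefore not read as a measure of strength. Hepatocyte markers were mixed: ALB, which encodes albumin, stayed between 0.53 and 1.22 FPKM in the 6 libraries and APOA1 and TTR, further liver secretory genes, did not exceed 0.43 FPKM, while HNF4A, a hepatocyte transcription factor gene, lay between 2.57 and 14.98 FPKM and the keratin gene KRT8 between 1624 and 2848 FPKM. Of markers of other cell types, the leukocyte gene PTPRC stayed at or below 0.13 FPKM, and the fibroblast collagen gene COL1A1 was at 10.9, 3.05 and 3.19 FPKM with TP53TG1, against 2.79, 1.81 and 2.85 FPKM in the controls. The endothelial gene PECAM1 was at 1.02, 4.07 and 1.70 FPKM with TP53TG1, against 3.19, 5.72 and 2.74 FPKM in the controls. Both libraries numbered 1 stood apart from the others in many of the results that follow. Small structured RNA genes held 6.62%, 0.601% and 1.53% of summed FPKM across TP53TG1 replicates 1 to 3, against 0.785%, 0.257% and 0.261% in controls 1 to 3.

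The share of the library held by the mitochondrial mRNAs overlapped between the groups. It was 13.3%, 11.4% and 11.2% of summed FPKM in the TP53TG1 libraries, against 14.6%, 11.5% and 10.3% in the controls. The means were 11.98 ± 1.18% with TP53TG1 and 12.13 ± 2.20% in the controls (SD, n = 3 each), a difference of -0.147 percentage points (exact two-sided permutation test, p = 0.8, where 0.1 is the smallest possible). The highest share in each group was in its replicate 1. The difference turned to 1.08 percentage points without control replicate 1, 0.239 without TP53TG1 replicate 3 and 0.144 without TP53TG1 replicate 2, and was -1.05 without control replicate 3, -0.825 without TP53TG1 replicate 1 and -0.479 without control replicate 2. It was 0.404 without both libraries numbered 1, and 0.192 with small structured RNA genes left out of the total (exact permutation p = 1). Weighted by transcript length, the 13 mRNAs held 9.02%, 5.08% and 5.22% in the TP53TG1 libraries and 8.74%, 5.11% and 4.72% in the controls. These are percentages of each library's own sum of FPKM times length in kb. That sum was 679383 in TP53TG1 replicate 1 and 971314 to 1129554 in the others. The weighted share of TP53TG1 replicate 1 is therefore not on the same footing and may overstate its share of fragments. In bulk RNA, fewer cells with a given RNA and less of it per cell cannot be told apart.

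The 2 rRNAs were minor components. They held 0.930%, 0.486% and 0.309% of summed FPKM in the TP53TG1 libraries, against 0.547%, 0.383% and 0.397% in the controls (exact two-sided permutation test, p = 0.7). The difference of means was 0.133 percentage points, -0.0448 without TP53TG1 replicate 1 and 0.155 with small structured RNA genes left out of the total. Both rRNAs together stood at 0.856, 0.517 and 0.333 times the mean FPKM of the 12 heavy-strand mRNAs in the TP53TG1 libraries, and at 0.457, 0.404 and 0.465 times it in the controls (exact two-sided permutation test, p = 0.7). TP53TG1 replicates 1 and 3 were the highest and the lowest of all 6. Whether the libraries were selected for polyadenylated RNA is not given in the sources used here, and these levels do not give the cellular amount of rRNA relative to mRNA.

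**Figure D1:**
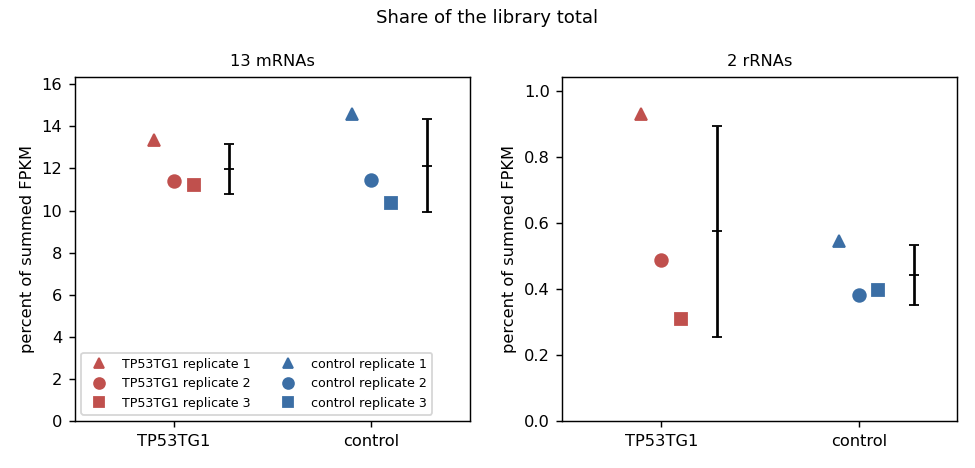
Share of summed FPKM held by the 13 mitochondrial mRNAs (left) and the 2 rRNAs (right), in percent, 1 point per library, with the mean and SD of each group (n = 3) as a black bar. The groups overlap in both panels, and the replicate 1 library of each group lies highest.

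All 22 tRNAs were listed at 0 in all 6 libraries. They are 59 to 75 nt long. No transcript of any kind shorter than 145 nt had a value above 0 in any library, and of 8492 transcripts under 200 nt only 103 did. The other 1610 genes whose longest transcript is at most 80 nt were likewise at 0 throughout. The tRNA zeros therefore give no measure of tRNA amount, and neither heavy- nor light-strand tRNAs were compared between the groups. The shortest members with values were MT-ATP8, of 207 nt, and MT-ND4L, of 297 nt.

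The 15 mRNAs and rRNAs lay between 608 and 25684 FPKM, well above the filter of a mean of 1 FPKM, so all 15 entered the test. Even the least covered value, MT-ND6 in control replicate 3, corresponds to 319 fragments in each 1000000. None of the 15 passed the test of TP53TG1 against control by limma with Benjamini-Hochberg adjustment at 0.05, in a comparison where 1 of 12853 tested genes did (0.00778%). That gene was not TP53TG1, which missed the threshold in the same limma fit (adjusted p = 0.0573). The SE of the members' log2 fold changes ran from 0.257 for MT-ATP8 to 0.545 for MT-ND6. Missing the threshold therefore does not show that a member was unchanged. At an unadjusted p under 0.05 there were 0 of the 15 and 302 of all tested genes (2.35%), a share at which 0 of 15 is unremarkable. A block on the replicate number let 192 genes pass (1.49%), median-of-ratios scaling 2 (0.0156%) and both together 6 (0.0467%), and in each case 0 of the 15.

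**Figure D2:**
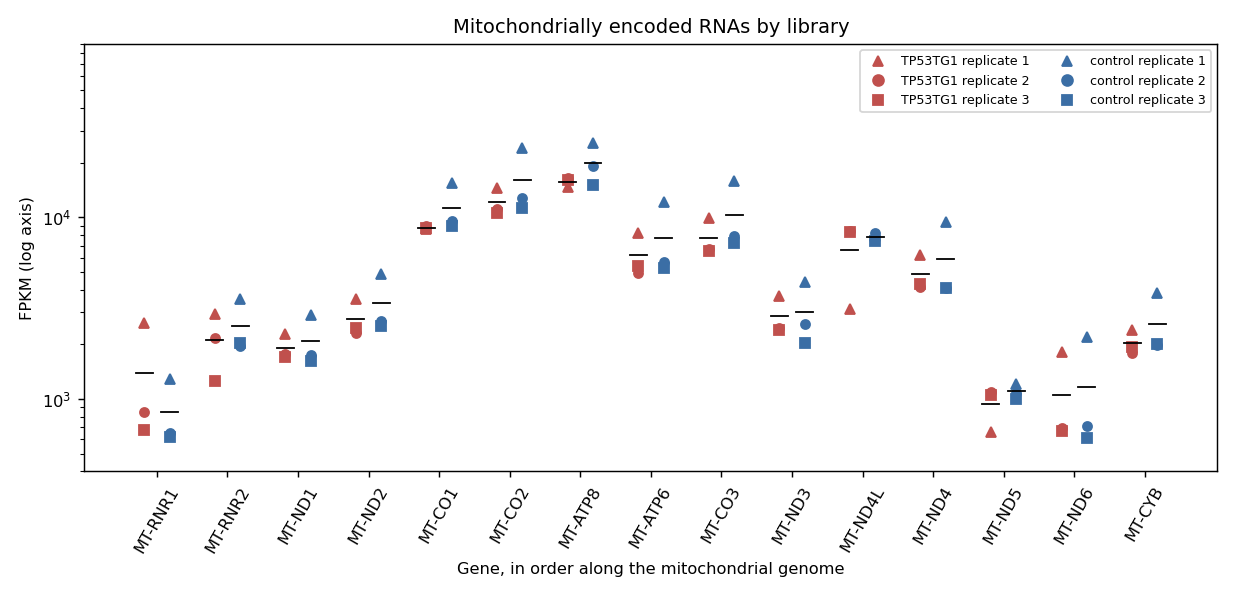
FPKM (log axis) of the 15 measured mitochondrial RNAs in order along the genome, 1 point per library and a black line at each group mean (n = 3), with TP53TG1 libraries left of controls. MT-ATP8 and MT-CO2 lead in every library, and the groups overlap for each gene.

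The order of the mRNAs was nearly fixed. MT-ATP8, a small ATP synthase subunit gene, was the highest and MT-CO2, a cytochrome c oxidase core subunit gene, the second highest in all 6 libraries. MT-CYB was always 10th and MT-ND1 always 11th of the 13. MT-ND6 was last in the 4 libraries numbered 2 and 3, and MT-ND5 was last in both libraries numbered 1. MT-ND4L was 4th in the libraries numbered 2 and 3, 9th in TP53TG1 replicate 1 and 7th in control replicate 1. Across the 13 mRNAs the rank correlation of FPKM with length was weak, from -0.346 to -0.286 in the 6 libraries (Spearman, as a description of genes that share a library).

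Complex IV mRNAs were the largest group. MT-CO1, MT-CO2 and MT-CO3, which code for the catalytic core of cytochrome c oxidase, together held 41.5%, 37.9% and 36.8% of the FPKM of the 13 mRNAs in the TP53TG1 libraries, against 42.6%, 38.6% and 39.8% in the controls. MT-CO1 was at 8649, 8956 and 8721 FPKM in the TP53TG1 libraries, against 15487, 9520 and 8932 FPKM in the controls. MT-CO2 was at 14577, 11178 and 10532 FPKM with TP53TG1, against 24058, 12733 and 11265 FPKM in the controls. Control replicate 1 was the highest library for both genes. MT-CO3 was at 9955, 6709 and 6524 FPKM with TP53TG1, against 15757, 7932 and 7262 FPKM in the controls, a log2 fold change of -0.35 (SE 0.340, limma with Benjamini-Hochberg adjusted p = 0.748).

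The ATP synthase genes followed. MT-ATP8 and MT-ATP6 code for membrane subunits of the enzyme and are read from 1 shared mRNA. MT-ATP8 was at 14773, 16386 and 16095 FPKM in the TP53TG1 libraries, against 25684, 19167 and 14977 FPKM in the controls. MT-ATP6, whose product forms part of the proton channel, was at 8202, 4963 and 5371 FPKM with TP53TG1, against 12202, 5715 and 5234 FPKM in the controls. The ratio of MT-ATP8 to MT-ATP6 was 1.80, 3.30 and 3.00 in the TP53TG1 libraries and 2.10, 3.35 and 2.86 in the controls. It was thus above 1 in every library although both frames lie on 1 RNA, and lowest in the libraries numbered 1.

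Complex I is represented by 7 mRNAs, all coding for subunits of its membrane arm. They held 26.7%, 29.4% and 29.9% of the FPKM of the 13 mRNAs with TP53TG1, against 25.3%, 27.0% and 28% in the controls, with overlapping groups but a higher share with TP53TG1 in 3 of 3 pairs of the same number. The complex IV share was lower with TP53TG1 in 3 of 3 pairs, and shares of 1 total are not independent. The pairing is not given by the labels, and these paired counts were not tested. MT-ND1 was at 2278, 1763 and 1706 FPKM in the TP53TG1 libraries, against 2889, 1748 and 1621 FPKM in the controls. MT-ND2 was at 3553, 2305 and 2454 FPKM with TP53TG1, against 4906, 2701 and 2522 FPKM in the controls. Both genes were highest in the replicate 1 library of each group. MT-ND3 was at 3701, 2455 and 2409 FPKM with TP53TG1, against 4392, 2580 and 2036 FPKM in the controls, and the log2 difference of -0.03 (SE 0.329) was the closest to 0 of all 15. MT-CYB, the only mitochondrial gene of complex III, was at 2389, 1786 and 1946 FPKM with TP53TG1, against 3813, 1996 and 1998 FPKM in the controls.

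MT-ND4L and MT-ND4, the other pair read from 1 mRNA, went apart in the libraries numbered 1. MT-ND4L was at 3148, 8366 and 8348 FPKM across TP53TG1 replicates 1 to 3, against 7869, 8177 and 7457 FPKM in controls 1 to 3. MT-ND4 was at 6213, 4147 and 4311 FPKM with TP53TG1, against 9444, 4101 and 4071 FPKM in the controls. TP53TG1 replicate 1 was thus the lowest library for MT-ND4L and the second highest for MT-ND4. The ratio of MT-ND4L to MT-ND4 was 0.507, 2.02 and 1.94 with TP53TG1 and 0.833, 1.99 and 1.83 in the controls. In the 4 libraries numbered 2 and 3 it stayed between 1.83 and 2.02 in either group.

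MT-ND5 and MT-ND6 lie end to end on opposite strands, and their order turned with the library number. MT-ND5 was at 660, 1091 and 1053 FPKM across TP53TG1 replicates 1 to 3, against 1217, 1081 and 1003 FPKM in controls 1 to 3. MT-ND6 was at 1811, 695 and 667 FPKM with TP53TG1, against 2203, 707 and 608 FPKM in the controls. The ratio of MT-ND6 to MT-ND5 was 2.74, 0.637 and 0.633 in the TP53TG1 libraries and 1.81, 0.654 and 0.606 in the controls. MT-ND6 was the higher of both genes in the libraries numbered 1 and the lower in the 4 others.

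The light-strand mRNA was compared with the heavy-strand mRNAs as a ratio within each library, which needs no scaling between libraries. MT-ND6 stood at 0.278, 0.119 and 0.115 times the mean of the 12 heavy-strand mRNAs in the TP53TG1 libraries, and at 0.207, 0.110 and 0.107 times it in the controls. The means were 0.171 ± 0.0931 with TP53TG1 and 0.141 ± 0.0571 in the controls (SD, n = 3 each; exact two-sided permutation test, p = 0.5). The ratio was higher with TP53TG1 in 3 of 3 pairs of the same number (exact sign-flip test, p = 0.25, the smallest possible). The difference of 0.0298 became 0.00900 without both libraries numbered 1, and -0.0240 without TP53TG1 replicate 1 alone. Libraries of the same number differed by less between groups than replicate 1 differed from replicates 2 and 3 in either group. Whether the libraries keep the strand is not given in the sources used here. If they do not, RNA copied from the opposite strand across MT-ND6 cannot be told apart from MT-ND6 itself.

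**Figure D3:**
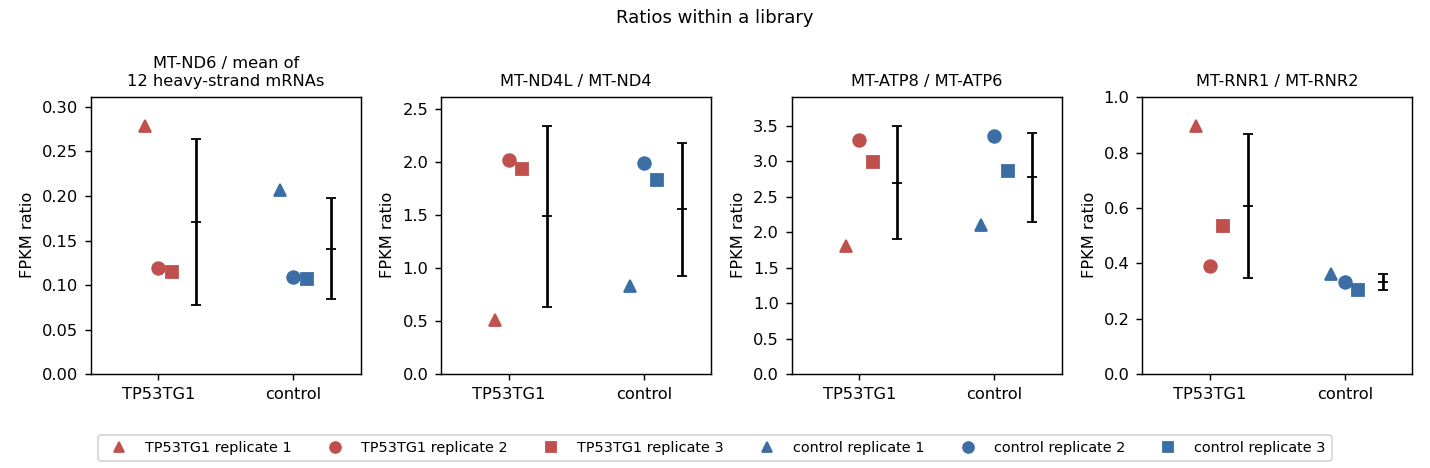
Ratios of FPKM within each library, 1 point per library, with the mean and SD of each group (n = 3) as a black bar. In the MT-ND6, MT-ND4L and MT-ATP8 panels the replicate 1 library of each group lies away from replicates 2 and 3, and in the MT-RNR1 panel the groups do not overlap.

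The libraries numbered 1 departed from the others gene by gene rather than by a common factor. In the controls, replicate 1 was above the mean of replicates 2 and 3 for 13 of 13 mRNAs, from 1.01 times for MT-ND4L and 1.17 times for MT-ND5 to 2.31 times for MT-ND4 and 3.35 times for MT-ND6. In the TP53TG1 group, replicate 1 was above the mean of replicates 2 and 3 for 9 of 13 mRNAs, from 0.377 times for MT-ND4L and 0.616 times for MT-ND5 to 2.66 times for MT-ND6. MT-ND4L and MT-ND5 were thus the lowest and MT-ND6 the highest of the mRNAs in either group. Over the 15 members the rank correlation of these departures between both groups was 0.739 (Spearman, as a description of genes that share libraries). Against length it was -0.187 in the TP53TG1 group and 0.00 in the controls, over the 13 mRNAs.

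**Figure D4:**
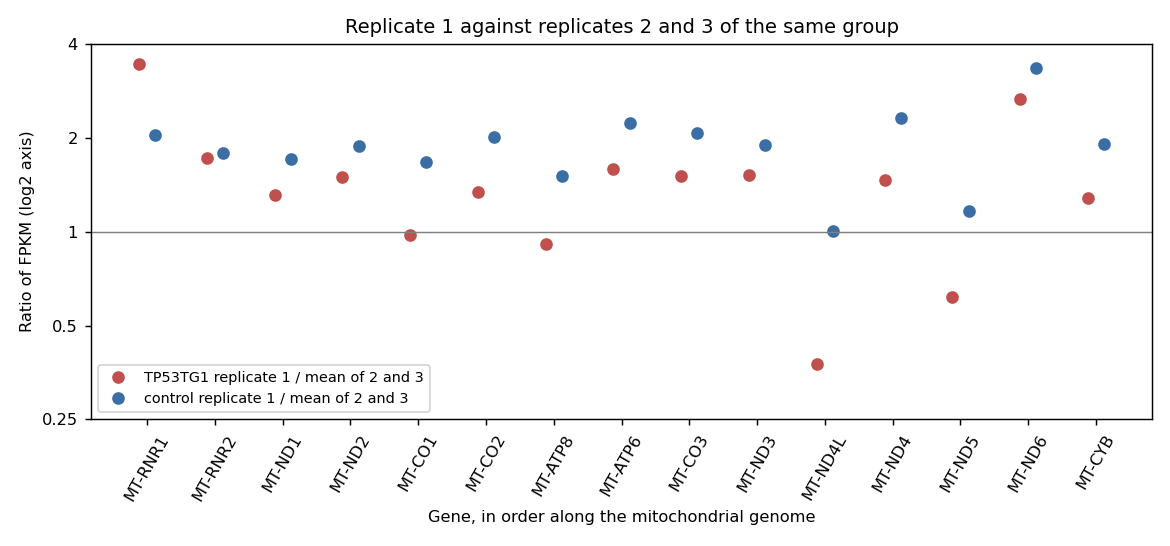
FPKM of the replicate 1 library divided by the mean of replicates 2 and 3 of the same group (log2 axis), for the 15 measured mitochondrial RNAs, with 1 point per group and a line at 1. MT-ND4L lies lowest and MT-ND6 is the highest mRNA in both groups, at 0.377 and 2.66 times with TP53TG1 and 1.01 and 3.35 times in the controls.

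The rRNA genes differed from each other. MT-RNR1, the RNA of the small subunit of the mitochondrial ribosome, was at 2632, 850 and 673 FPKM in the TP53TG1 libraries, against 1293, 651 and 615 FPKM in the controls. MT-RNR2, the RNA of the large subunit, was at 2940, 2168 and 1257 FPKM with TP53TG1, against 3575, 1956 and 2037 FPKM in the controls. MT-RNR1 was the only one of the 15 members with a positive log2 fold change, 0.51 (SE 0.512, adjusted p = 0.748 by limma with the Benjamini-Hochberg method, and 0.370 with the replicate block), and without TP53TG1 replicate 1 it was -0.09. Between libraries of the same number it was 2.04, 1.31 and 1.09 times as high with TP53TG1, in unscaled FPKM.

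The ratio of MT-RNR1 to MT-RNR2, chosen after its values were seen, was 0.895, 0.392 and 0.536 in the TP53TG1 libraries and 0.362, 0.333 and 0.302 in the controls. The groups did not overlap, with means of 0.608 ± 0.259 for TP53TG1 and 0.332 ± 0.0297 for the controls (SD, n = 3 each), and no test is given for a ratio chosen in this way. Without both libraries numbered 1 the difference of 0.276 fell to 0.146. Among all 105 ratios between 2 of the 15 members, 14 had groups that did not overlap (13.3%). MT-RNR1 was in 6 of these, out of 14 ratios that hold it, and the others held MT-ND1, MT-ND3 or MT-ND4. With 3 libraries against 3 and no group difference, a value has groups without overlap, in either direction, with probability 0.1. Of all tested genes, 0.599% had groups that did not overlap and were higher with TP53TG1 when divided by MT-RNR2, and 1.27% were lower. Within the mRNA total, MT-ND1 held 2.85%, 2.49% and 2.43% of the FPKM of the 13 mRNAs with TP53TG1, against 2.22%, 2.24% and 2.35% in the controls. MT-ND3 held 4.63%, 3.47% and 3.43% with TP53TG1, against 3.38%, 3.30% and 2.95% in the controls. MT-ND1 and MT-ND3 were the 2 of 13 mRNAs whose shares did not overlap between the groups, where 1.21% of all tested genes, divided by the same total, were higher without overlap and 1.77% lower. Nearly all tested genes lie outside the mitochondrial genome. Their percentages are therefore not a like-for-like background for shares or ratios within it, and no excess is claimed for MT-ND1, MT-ND3 or MT-RNR1.

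The direction of the fold changes depended on the scaling of the libraries. In unscaled FPKM, 14 of the 15 log2 fold changes were negative, those of the mRNAs from -0.38 for MT-ND4L to -0.03 for MT-ND3 with a median of -0.27, but the median of all tested genes was -0.35. With median-of-ratios scaling, which sets the typical gene equal between libraries, all 15 were positive, the mRNAs from 0.03 to 0.38 with a median of 0.14 beside 0.00 for all tested genes. Above the median of all tested genes lay 13 of the 15 unscaled and 15 of the 15 scaled. The members share libraries and precursor RNAs, so these counts are not independent observations. The scaling factor of TP53TG1 replicate 1 was 0.597, against 0.999 to 1.18 in the other libraries. Between the replicates numbered 1, the scaled ratio of TP53TG1 to control ran from 0.739 for MT-ND4L to 3.76 for MT-RNR1. It ran from 0.911 for MT-CO3 to 1.41 for MT-RNR1 between those numbered 2. For those numbered 3 it ran from 0.726 for MT-RNR2 to 1.39 for MT-ND3. No library was left out on the scaled values. No member's groups were free of overlap on either scale. Of all tested genes, 0.428% were higher and 13.3% lower without overlap in unscaled FPKM, and 2.01% and 2.05% after scaling.

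**Figure D5:**
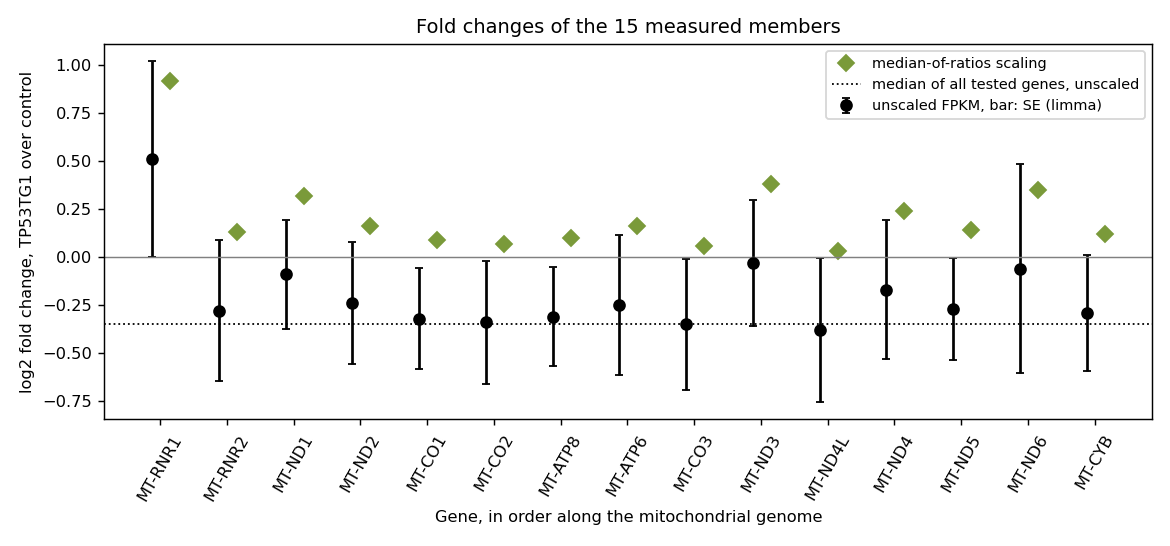
Log2 fold change of TP53TG1 over control for the 15 measured mitochondrial RNAs, in unscaled FPKM with its SE from limma (black) and with median-of-ratios scaling (green), n = 3 per group. Of the unscaled values 14 are negative, beside a median of -0.35 for all tested genes (dotted), and the scaled values lie between 0.03 and 0.92.

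Nuclear copies of mitochondrial genes can take fragments from the members. Of 405 such copies by symbol, 350 were at 0 in every library and 4 reached a mean of 1 FPKM. The highest was MTATP6P1, a copy of MT-ATP6 on chromosome 1, which differs from MT-ATP6 at 10 of 681 positions (98.5% identity). The first 90 nt of both are printed with the only difference in that stretch in capitals (MT-ATP6, chrM:8527-8616; MTATP6P1, chr1:633696-633785, both plus strand).
MT-ATP6, part: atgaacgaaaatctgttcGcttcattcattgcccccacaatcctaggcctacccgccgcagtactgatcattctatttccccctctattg
MTATP6P1, part: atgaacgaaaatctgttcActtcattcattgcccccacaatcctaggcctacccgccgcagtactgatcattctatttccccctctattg
MTATP6P1 was at 753, 440 and 504.5 FPKM in the TP53TG1 libraries, against 1226, 544 and 502 FPKM in the controls. That is 9.19%, 8.86% and 9.39% of the MT-ATP6 value with TP53TG1 and 10.1%, 9.52% and 9.60% in the controls. MTCO1P12, 98.6% identical to MT-CO1, stayed at 0.232% to 0.331% of MT-CO1. MTND2P28, 98.4% identical to MT-ND2, stayed at 0.0412% to 0.0848% of it. MTRNR2L1, 88.5% identical to MT-RNR2, was at 1.34%, 0.736% and 0.776% of MT-RNR2 with TP53TG1 and 1.28%, 0.730% and 0.662% in the controls. How fragments that match both places were assigned is not given in the sources used here, so the levels of these copies and of their mitochondrial counterparts are uncertain.

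Nuclear genes that act on mitochondrial RNA and DNA did not pass the test either. All 77 genes of 6 lists were found and 76 were tested, with 0 higher and 0 lower, and 0 with the replicate block. At an unadjusted p under 0.05 there was 1 of the 76, where 2.35% of all tested genes reached it. This was TWNK, the mitochondrial DNA helicase gene, at 3.23, 3.82 and 3.30 FPKM in the TP53TG1 libraries, against 4.96, 8.31 and 8.63 FPKM in the controls. This is a log2 difference of -0.87 (SE 0.349, adjusted p = 0.748 by limma with the Benjamini-Hochberg method), or -0.53 with median-of-ratios scaling. The groups did not overlap, as for 13.3% of all genes on the lower side. The median log2 fold change was -0.41 for 9 transcription genes, -0.40 for 24 RNA processing and modification genes, -0.30 for 9 RNA stability genes, -0.39 for 10 DNA replication and nucleotide genes and -0.30 for 6 biogenesis regulators, beside -0.35 for all genes. With median-of-ratios scaling these medians lay between -0.06 and 0.07.

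Among the named members of these lists, TEFM, the mitochondrial transcription elongation factor gene, was at 7.18, 21.7 and 14.8 FPKM in the TP53TG1 libraries, against 17.98, 19.2 and 20.8 FPKM in the controls. LRPPRC, whose product stabilises mitochondrial mRNAs, was at 15.2, 38.7 and 35.4 FPKM with TP53TG1, against 23.3, 42.9 and 47.3 FPKM in the controls. TP53TG1 replicate 1 was the lowest library for both genes. GRSF1, which encodes a protein of mitochondrial RNA granules, was at 32.4, 40.5 and 44.2 FPKM with TP53TG1, against 56.4, 44.0 and 49.0 FPKM in the controls, and REXO2, an oligoribonuclease gene, at 58.4, 66.7 and 63.1 FPKM with TP53TG1, against 81.7, 70.6 and 79.6 FPKM in the controls. The poly(A) polymerase gene MTPAP was at 3.90, 6.30 and 3.90 FPKM with TP53TG1, against 4.13, 7.71 and 7.54 FPKM in the controls, with overlapping groups.

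The balance of mitochondrial and nuclear subunit mRNAs was compared within each library. The mean of the 7 complex I mRNAs stood at 33.7, 32.7 and 35.2 times the mean of 7 nuclear core subunit mRNAs in the TP53TG1 libraries, against 33.6, 30.4 and 29.7 times in the controls. For complex IV the ratio was 30.2, 31.0 and 32.3 with TP53TG1 and 33.9, 30.8 and 30.2 in the controls. For complex V it was 65.6, 42.5 and 44.8 with TP53TG1 and 59.6, 39.9 and 41.7 in the controls, again highest in the libraries numbered 1. MT-CYB stood at 22.9, 13.4 and 13.1 times the mean of 4 nuclear complex III mRNAs with TP53TG1 and at 16.3, 12.5 and 16.2 times it in the controls. The groups overlapped in all 4 complexes. Within pairs of the same number the ratio was higher with TP53TG1 in 3 of 3 pairs for complexes I and V. In pair 1 of complex I the values were nearly equal (33.7 against 33.6). For complexes III and IV the pairs went both ways. These paired counts were not tested, and the 18 nuclear partners had a median log2 fold change of -0.36.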

How the data were processed

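RNA sequencing libraries of 3 TP53TG1 and 3 control samples were analysed. The authors deposited 1 FPKM value per annotated transcript and library, with no unit in the file headers. Alignment and quantification tools were HISAT2 and StringTie on GRCh38.p10, per the submitters' processing notes, without versions, annotation release or strand setting. The unit is inferred from StringTie's use and from the values: FPKM multiplied by length in kb summed to 971314 to 1129554 in 5 libraries, where the unit implies about 1000000, but to 679383 in TP53TG1 replicate 1. The number of fragments per library is unknown.

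Transcripts were summed per gene, and blank symbols (0 to 88000 per library) were filled by transcript. Lengths, biotypes, coordinates and sequences came from GENCODE release 29 (99.8% of transcripts found). No 2 libraries held identical values. The test ran on log2(FPKM + 1) of the 12853 genes averaging 1 FPKM or more, using limma 3.58.1 in R 4.3.3 (trend, Benjamini-Hochberg, threshold 0.05). Fold changes on this scale understate those of low genes. The test was also tried on simulated data with added changes much larger than those of the members, which does not show its power for small changes. Other values were computed in Python 3.11.15 with pandas 2.3.3, scipy 1.17.1 and biopython 1.88. Any member could be named, of each list the 4 smallest p, and the 5 highest nuclear copies. The members, lists and alternatives were chosen with earlier results of these data known.

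Both groups are numbered 1 to 3. Deviations from the group means correlated at 0.71, 0.562 and 0.289 between libraries of the same number, all above the limit of 0.1, so a fit with the number as a block was added. The pairing comes from the data, not from the labels, and controls 2 and 3 also correlated with TP53TG1 replicates 3 and 2 at 0.302 and 0.4.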

Additional observations from a re-analysis of the deposited data

How the results depend on the processing

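The number of the 15 members past the threshold was 0 under every alternative tried, and the lowest adjusted p of a member was 0.328 (MT-CO2, with the replicate block). Of all genes 1 passed, against 2 with median-of-ratios scaling, 0 with no filter on low values, 2 with a mean of at least 5 FPKM, 192 with the replicate block, 6 with the block and median-of-ratios scaling, 9 with the block and the same total of non-mitochondrial genes, and 0 to 1 when 1 library was left out (0 without control replicate 1 or control replicate 3). The pairing by number changed no member's call, and exact sign-flip tests of the 3 pairs gave p = 0.25, the smallest possible, for MT-ND6 over the heavy-strand mRNAs and 0.75 for the rRNAs over them.

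Signs of the member fold changes depended on scaling and on single libraries. With median-of-ratios scaling, with or without the block, the log2 fold changes that turned positive were 0.32 for MT-ND1, 0.16 for MT-ND2, 0.38 for MT-ND3, 0.24 for MT-ND4, 0.03 for MT-ND4L, 0.14 for MT-ND5, 0.35 for MT-ND6, 0.12 for MT-CYB, 0.09 for MT-CO1, 0.07 for MT-CO2, 0.06 for MT-CO3, 0.16 for MT-ATP6, 0.10 for MT-ATP8 and 0.13 for MT-RNR2. With libraries set to the same total, of all genes or of non-mitochondrial genes with or without the block, they were 0.18 for MT-ND1, 0.02 for MT-ND2, 0.24 for MT-ND3, 0.10 for MT-ND4, 0.21 for MT-ND6 and 0.02 for MT-ATP6. Without both libraries numbered 1 they were 0.04 for MT-ND1, 0.09 for MT-ND3, 0.05 for MT-ND4, 0.10 for MT-ND4L, 0.04 for MT-ND5 and 0.05 for MT-ND6. Leaving out 1 library moved MT-ND1 between -0.24 and 0.17, MT-ND2 between -0.44 and 0.06, MT-ND3 between -0.27 and 0.29, MT-ND4 between -0.37 and 0.23, MT-ND4L between -0.61 and 0.09, MT-ND6 between -0.53 and 0.52, MT-CYB between -0.45 and 0.02, MT-ATP6 between -0.47 and 0.14, MT-RNR1 between -0.09 and 0.90 and MT-RNR2 between -0.55 and 0.06. The cause was not tested. The mRNA share difference of -0.147 percentage points turned to 0.247 when weighted by length, 0.192 without small structured RNA genes and 0.404 without both libraries numbered 1, and lay between -1.05 and 1.08 when 1 library was left out. The length-weighted difference includes the share of TP53TG1 replicate 1 in its own low total of 679383. The rRNA share difference lay between -0.0448 and 0.266 when 1 library was left out. MT-ND6 over the heavy-strand mRNAs differed by -0.0240 to 0.0627 in the same way, and the rRNAs over them by -0.0172 to 0.244, and by -0.00961 without both libraries numbered 1. MT-RNR1 over MT-RNR2 differed by 0.132 to 0.383 when 1 library was left out, in alternatives chosen after seeing the data. The fragments behind each value are unknown, so no counting error is given.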
